A study of Mus musculus with 12 samples.

Results

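The effect of doxycycline (Dox) that APC-deleted and APC-intact mouse colon tumours had in common was followed across all measured genes. It was defined as the mean of 2 differences, Dox minus no Dox in APC-KO tumours and Dox minus no Dox in APC-WT tumours, so that 6 tumours with Dox were set against 6 without it and genotype was kept in the model. All 12 arrays of the series entered. Of 18193 genes with a probe set that carried 1 gene symbol, 11070 were bright enough to be tested, and 105 of these changed with the same sign in both genotypes.

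The tumours had been raised in the cecum of C57BL/6 mice from MC38, a mouse colon carcinoma line, and each of the 4 groups held 3 of them: APC-KO with Dox, APC-KO without Dox, APC-WT with Dox and APC-WT without Dox. All carried an inducible hairpin against Tdo2 (ishTDO2), the gene of tryptophan 2,3-dioxygenase, the enzyme that starts the kynurenine pathway by cleaving tryptophan, and Dox was given in the drinking water to switch the hairpin on. The series was built around the question whether tumours without APC, the scaffold protein that keeps beta-catenin low, depend on TDO2. The hairpin sits in the injected tumour cells, while the arrays measured RNA of tumour and host cells together, so fewer cells of a type and less RNA per cell cannot be told apart. Dox also reaches the host, and no Dox-treated tumour lacking the hairpin was analysed here, so what Dox does by itself and what the hairpin does cannot be told apart. The design text speaks of cell lines and the sample labels of tumours. Separate animals for the tumours of each group are not stated in the labels, and p-values reflect just the spread among these samples, which may be technical.

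Several programmes recur in the results. Cells short of amino acids or with stressed mitochondria translate the transcription factor ATF4, which raises enzymes of serine, glycine and cysteine synthesis, amino acid carriers and tRNA synthetases. Cells short of oxygen stabilise hypoxia-inducible factor (HIF), which raises glucose uptake, glycolysis, mitophagy and signals to blood vessels. FOXO factors, active when insulin and growth factor signalling is low, raise genes that slow the cell cycle. Doxycycline is also an antibiotic that can hinder translation in mitochondria, and kynurenine is a ligand of the aryl hydrocarbon receptor.

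Values are the authors' log2 expression values, and each difference is on the log2 scale, Dox minus no Dox, with the standard error of a limma fit to all arrays. A gene was called changed where its adjusted p (Benjamini-Hochberg over 11070 genes) was under 0.05. The floor for testing was a mean log2 value of 5.55 over all arrays, which is a filter and not a measured background. Array medians lay between 5.528 and 5.575 and correlations between arrays of a group between 0.995 and 0.9979. The signal of the 18S ribosomal RNA probe sets was lower with Dox by a mean difference of -0.28, at -0.52 in APC-KO and -0.05 in APC-WT tumours (exact permutation test within genotype, 2-sided, p = 0.045, adjusted over 3 controls 0.135). For Gapdh and Actb the difference between 3′ and 5′ signal, a sign of RNA quality, moved by -0.01 and -0.00 (exact p = 0.445 and 0.93).

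The targeted gene could not be read. All 3 probe sets of Tdo2 were under the floor, with means of 2.59, 3.12 and 3.85. The brightest read 3.85, 3.84 and 4.17 in APC-KO Dox tumours, against 3.62, 3.74 and 3.70 in APC-KO no-Dox tumours, and 3.93, 3.76 and 3.95 in APC-WT Dox tumours, against 3.81, 3.82 and 4.01 in APC-WT no-Dox tumours. Its mean Dox difference was 0.14 ± 0.07 (adjusted p over all probe sets 0.55), so knockdown of Tdo2 cannot be judged from these arrays. The brightest Apc probe set had a mean Dox difference of -0.03 ± 0.05 (adjusted p 0.812 among the tested genes). Another Apc probe set lay between 6.74 and 7.02 in the APC-KO tumours and between 7.57 and 7.84 in the APC-WT tumours, with no overlap.

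Far more genes were lower than higher with Dox. In all, 106 genes changed, 0.958% of those tested, of which 16 (0.145%) were higher and 90 (0.813%) lower with Dox. The sign was the same in both genotypes for 105 of them (0.949%). The exception was Eif1ad, at -0.02 in APC-KO and 0.39 in APC-WT tumours. Before adjustment, 1931 genes (17.4%) had p under 0.05. Rises were small, between 0.18 and 0.67 with a median of 0.27, while falls lay between -0.17 and -1.34 with a median of -0.41. Of the 106, only 4 moved by at least 2-fold in the fit, namely Krt8, Ccn2, Ms4a4d and Ankrd37, all lower. Some genes that did not pass had larger mean differences, such as S100a9 at -1.56 (adjusted p 0.131). Ms4a4d was under the floor on all 6 APC-KO arrays and was tested because of its level in APC-WT tumours, so its APC-KO difference (-0.40, unadjusted p 0.124, groups overlapping) and the size of its mean difference are uncertain. The median over all tested genes was -0.0022.

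Most of these genes could be called only by taking both genotypes together. Tested in APC-KO tumours alone, 60 genes (0.542%) changed, and in APC-WT tumours alone 3 (0.0271%). Of the 106, 38 also passed in APC-KO tumours alone, 3 in APC-WT tumours alone and 65 in neither. For 56 of the 106, 8 higher and 48 lower, values with and without Dox were fully apart in both genotypes, which was so for 271 of all tested genes (2.45%), 0.985% higher and 1.46% lower. Across all genes the differences in the 2 genotypes were only weakly related (Pearson's r 0.107, Spearman's rho 0.151 over 11070 genes, which are not independent and share arrays in each genotype), and 54.6% had the same sign.

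**Figure D1:**
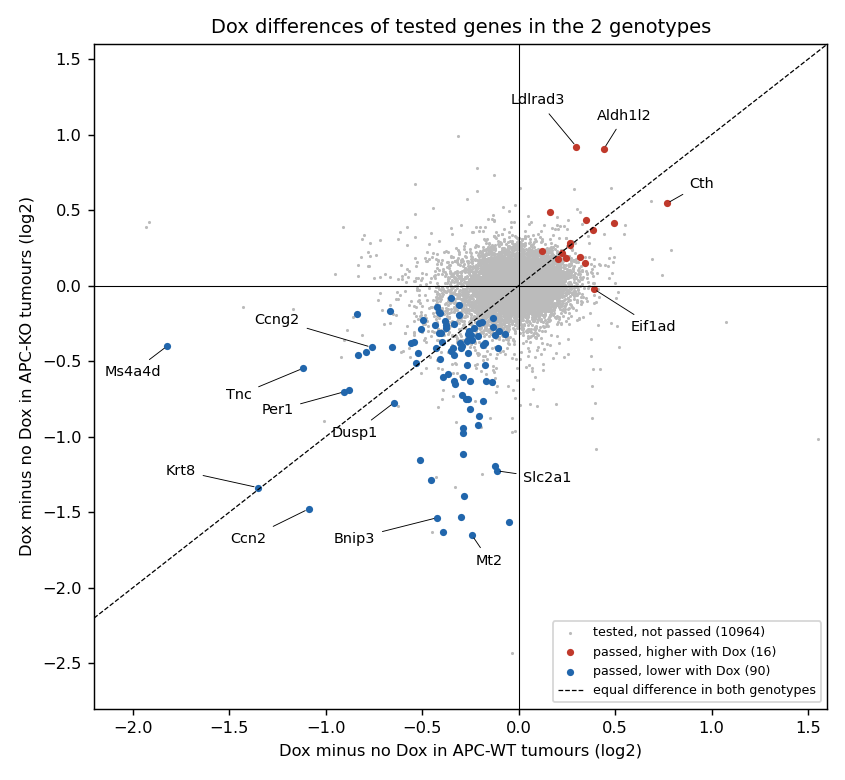
Each point is 1 tested gene, with its Dox minus no Dox difference (log2) in APC-WT tumours on the horizontal axis and in APC-KO tumours on the vertical axis. The 106 changed genes are coloured, the dashed line marks equal differences, and 6 tested genes lie outside the plotted range; most coloured points sit in the lower left, many of them nearer the vertical axis.

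The count rested heavily on single arrays. Among APC-KO tumours with Dox, leaving out replicate 2 gave 61 genes and leaving out replicate 3 gave 11. Among APC-KO tumours with no Dox, leaving out replicate 3 gave 61. Among APC-WT tumours with Dox, leaving out replicate 1 gave 5 genes and leaving out replicate 2 gave 36. Among APC-WT tumours with no Dox, leaving out replicate 1 gave 34 and leaving out replicate 3 gave 259. Every one of the 106 genes kept its direction in all 12 of these fits, which their selection on the same arrays made likely. Of the 106, 36 passed in at least 9 of the fits, and 5 passed in all 12. Those 5, chosen by this count after their values were seen, were Ccng2, Ccn2, Mgarp, Pgf and Pnrc1, all lower with Dox. Of the genes that rose, none passed in more than 7 of the 12 fits, which was reached by Hspd1.

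**Figure D2:**
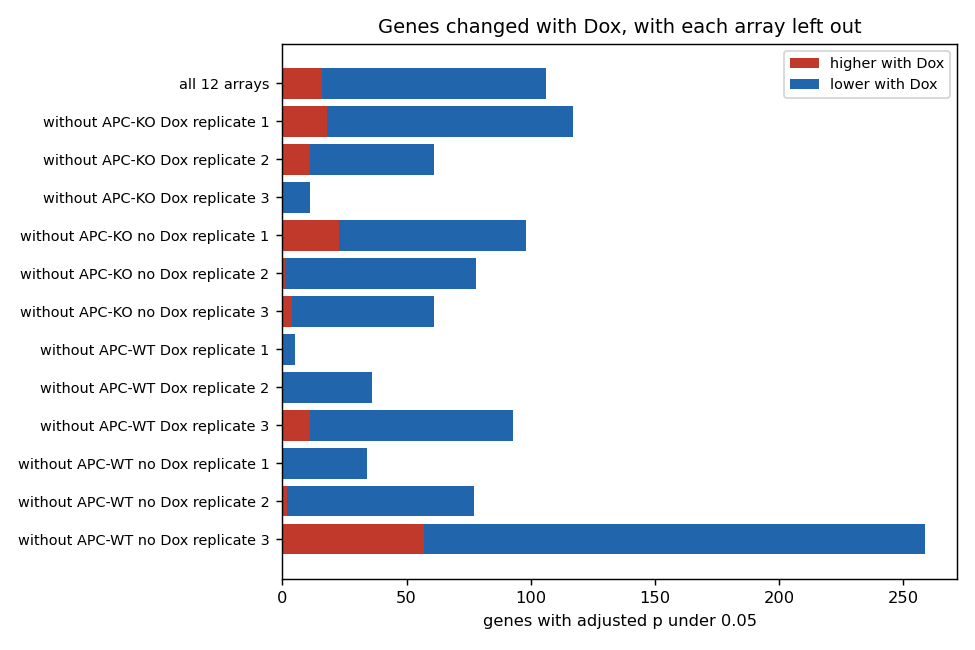
Bars give the number of genes with an adjusted p under 0.05 for the mean Dox effect, red for higher and blue for lower with Dox, with all 12 arrays and with each array left out. The total lies between 5 and 259, and no gene is higher in 4 of the 12 fits.

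The genes that rose were led by enzymes of serine and cysteine synthesis and of mitochondrial one-carbon metabolism, which belong to the ATF4 programme. Of 24 tested genes on a list of that programme 5 rose and none fell, where 0.145% of all tested genes rose: Cth, Aldh1l2, Psph, Psat1 and Pck2. The list's median was 0.23, with 0.34 in APC-KO and 0.18 in APC-WT tumours, and 19 of 24 were higher in both genotypes, against 26.2% of all tested genes. Members that did not pass include Asns, asparagine synthetase (0.46 ± 0.11, adjusted p 0.0634), Trib3, a pseudokinase that feeds back on ATF4 (0.56, adjusted p 0.19), and Atf4 itself (0.15, adjusted p 0.296), whose control is largely translational. Chop (Ddit3) stood at -0.05 (adjusted p 0.812).

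Cth encodes cystathionine gamma-lyase, which releases cysteine. Its log2 values were 7.87, 7.58 and 8.29 in APC-KO Dox tumours, against 7.85, 7.08 and 7.18 in APC-KO no-Dox tumours, and 8.56, 8.41 and 8.13 in APC-WT Dox tumours, against 7.65, 7.39 and 7.76 in APC-WT no-Dox tumours. The groups were apart in APC-WT and overlapped in APC-KO tumours, where no-Dox replicate 1 lay above Dox replicate 2. The mean difference was 0.66 ± 0.14 (adjusted p 0.047). Aldh1l2, a mitochondrial folate dehydrogenase, read 7.78, 7.75 and 8.48 in APC-KO Dox tumours, against 7.51, 6.79 and 7.00 in APC-KO no-Dox tumours, and 8.41, 8.01 and 7.75 in APC-WT Dox tumours, against 7.61, 7.64 and 7.59 in APC-WT no-Dox tumours. It did not overlap in either genotype, and rose by 0.67 ± 0.15 (adjusted p 0.0489).

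Psat1 and Psph catalyse the last steps of serine synthesis, as transaminase and phosphatase. Psph read 9.77, 9.49 and 10.04 in APC-KO Dox tumours, against 9.62, 9.14 and 9.30 in APC-KO no-Dox tumours, and 9.99, 9.84 and 9.75 in APC-WT Dox tumours, against 9.45, 9.22 and 9.43 in APC-WT no-Dox tumours. Psat1 read 10.63, 10.28 and 10.78 in APC-KO Dox tumours, against 10.34, 9.98 and 10.06 in APC-KO no-Dox tumours, and 10.57, 10.42 and 10.55 in APC-WT Dox tumours, against 10.29, 10.01 and 10.20 in APC-WT no-Dox tumours. Both were apart in APC-WT tumours and overlapped in APC-KO tumours, again through no-Dox replicate 1, with rises of 0.45 ± 0.10 and 0.39 ± 0.08 (adjusted p 0.0423 and 0.0468). Phgdh, the enzyme of the first step, stood at 0.15 (adjusted p 0.16). Pck2, mitochondrial phosphoenolpyruvate carboxykinase, rose by 0.33 ± 0.07, with 0.49 in APC-KO and 0.16 in APC-WT tumours (adjusted p 0.0404). Gars, glycyl-tRNA synthetase, which was not on the list, rose by 0.18 ± 0.04 (adjusted p 0.0375), and its groups did not overlap in either genotype. Few of the fits that leave out an array kept these calls: Cth and Pck2 passed in 4 of the 12, and Aldh1l2, Psph and Psat1 in 3.

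Promoter sequences of 2 of these genes are shown because both hold the composite element that ATF4 binds together with C/EBP factors, searched as TGATGNAA on both strands in the 250 bases before each RefSeq transcription start (build GRCm38.p6). The capitals mark the element, here on the opposite strand to the gene, 103 bases before the start of Pck2 (chr14:55540133-55540200, plus strand) and 30 bases before that of Gars (chr6:55037941-55038000, plus strand).
Pck2: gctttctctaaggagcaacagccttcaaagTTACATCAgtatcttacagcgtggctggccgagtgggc
Gars: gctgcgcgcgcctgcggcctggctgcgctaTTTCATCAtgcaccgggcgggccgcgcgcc
Among genes with such a window, 4 of 19 on the ATF4 list and 2 of 12 that rose held the element, against 2.33% of all tested genes and 3.91% of all genes with a window. Of the genes that fell, 5 of 76 (6.58%) held it too. No match was found for Cth, Aldh1l2, Psph or Psat1, some of which may lack such a window. A match is a description of these letters and not a binding site.

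The other rises were smaller and came from several functions. Hspd1, the mitochondrial chaperonin HSP60, read 12.31, 12.29 and 12.40 in APC-KO Dox tumours, against 12.20, 12.04 and 12.25 in APC-KO no-Dox tumours, and 12.25, 12.18 and 12.20 in APC-WT Dox tumours, against 12.01, 11.97 and 12.04 in APC-WT no-Dox tumours. It rose by 0.19 ± 0.04 (adjusted p 0.0311) with no overlap in either genotype. Hspd1 was the 1 member of 17 mitochondrial chaperones and proteases that passed; its partner Hspe1 stood at 0.11 (adjusted p 0.375), and the list's median was 0.03. Cst6, the secreted protease inhibitor cystatin E/M, rose by 0.38 ± 0.08 (adjusted p 0.0385). Gcdh, glutaryl-CoA dehydrogenase of lysine and tryptophan breakdown, rose by 0.21 ± 0.05 (adjusted p 0.0483), and Alg3, a mannosyltransferase of N-glycan assembly, by 0.25 ± 0.05 (adjusted p 0.0461). Klhl42, an adaptor of cullin ubiquitin ligases, rose by 0.27 ± 0.05 (adjusted p 0.0318), and Cfap298, a gene of motile cilia, by 0.28 ± 0.06 (adjusted p 0.0381). Ldlrad3, a receptor of the LDL receptor family, rose by 0.61 ± 0.13, at 0.92 in APC-KO and 0.30 in APC-WT tumours (adjusted p 0.0472). The zinc finger genes Zfp692 and Zbtb11 rose by 0.22 ± 0.04 and 0.26 ± 0.05 (adjusted p 0.0385 and 0.0463).

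Among the genes that fell, the keratin Krt8 and the matricellular gene Ccn2 had the largest differences of like size in both genotypes. Krt8, a keratin of simple epithelia, read 9.02, 7.20 and 8.57 in APC-KO Dox tumours, against 10.09, 9.13 and 9.58 in APC-KO no-Dox tumours, and 9.59, 9.35 and 9.47 in APC-WT Dox tumours, against 11.65, 10.70 and 10.12 in APC-WT no-Dox tumours. The Dox tumours lay below the no-Dox tumours of their genotype in every case. The differences were -1.34 in APC-KO and -1.35 in APC-WT tumours, with a mean of -1.34 ± 0.29 (adjusted p 0.048), and 2 further probe sets of Krt8 gave -1.42 and -1.28. It passed in 3 of the 12 fits that leave out an array. None of the 4 tested markers of gut epithelium passed. Epcam stood at 0.09 (adjusted p 0.485), Lgals4 at 0.10 (adjusted p 0.58) and Fcgbp at -0.00 (adjusted p 0.999). Cdh1, E-cadherin, stood at -0.35 (adjusted p 0.165), made of 0.05 in APC-KO and -0.75 in APC-WT tumours, where the Dox values lay below the no-Dox values and all 3 were under the floor.

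Ccn2, connective tissue growth factor, read 6.16, 6.13 and 6.27 in APC-KO Dox tumours, against 7.55, 7.81 and 7.63 in APC-KO no-Dox tumours, and 5.77, 5.83 and 5.78 in APC-WT Dox tumours, against 6.75, 7.62 and 6.29 in APC-WT no-Dox tumours. The Dox values were tight and low in both genotypes, and the APC-WT no-Dox tumours were spread. The mean difference was -1.28 ± 0.16 (adjusted p 0.00697). Its relative Ccn1 fell by 0.48 ± 0.10 (adjusted p 0.0396), at -0.63 in APC-KO and -0.33 in APC-WT tumours, where its groups overlapped. Tnc, the matrix glycoprotein tenascin C, fell by 0.83 ± 0.15 (adjusted p 0.0205), at -0.55 in APC-KO and -1.12 in APC-WT tumours. In APC-KO tumours the groups of Tnc overlapped, and 2 of its 3 Dox values were under the floor. Of the 12 fits that leave out an array, Ccn2 passed in all, Tnc in 9 and Ccn1 in 2. These 3 were the members of 23 tested matrix genes that fell, where 0.813% of all tested genes fell, none rose, and the list's median was -0.09, with collagens such as Col1a1 and Col3a1 at -0.09 and -0.04 (adjusted p 0.537 and 0.587). Ccn1 and Ccn2 are known targets of YAP and TEAD factors; 2 others, looked up after the values were seen, did not pass. Ankrd1 stood at -0.01, and Amotl2 at -0.01, made of 0.22 in APC-KO and -0.25 in APC-WT tumours. Emilin2, an elastin-associated glycoprotein, fell by 0.42 ± 0.07, at -0.41 in APC-KO and -0.43 in APC-WT tumours (adjusted p 0.0162).

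Per1, Dusp1 and Klf9, genes known to respond quickly to hormones and stress, fell by similar amounts in both genotypes. Per1, a repressor of the circadian clock that is also induced by glucocorticoids, read 7.16, 6.80 and 7.13 in APC-KO Dox tumours, against 7.80, 7.79 and 7.60 in APC-KO no-Dox tumours, and 7.14, 6.99 and 7.23 in APC-WT Dox tumours, against 7.86, 8.63 and 7.59 in APC-WT no-Dox tumours. Dusp1, a phosphatase that switches off MAP kinases, read 8.00, 8.10 and 8.02 in APC-KO Dox tumours, against 8.92, 8.84 and 8.68 in APC-KO no-Dox tumours, and 8.03, 8.12 and 8.17 in APC-WT Dox tumours, against 8.62, 9.27 and 8.37 in APC-WT no-Dox tumours. Klf9, a transcription factor induced by glucocorticoids, read 9.48, 9.19 and 9.34 in APC-KO Dox tumours, against 9.68, 10.09 and 9.78 in APC-KO no-Dox tumours, and 9.24, 9.50 and 9.52 in APC-WT Dox tumours, against 9.90, 10.19 and 9.77 in APC-WT no-Dox tumours. None of the 3 overlapped in either genotype, and in each of them APC-WT no Dox replicate 2 was the highest of all 12 tumours. Their mean differences were -0.80 ± 0.14, -0.71 ± 0.11 and -0.52 ± 0.09 (adjusted p 0.0191, 0.0169 and 0.0191).

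Of 14 tested clock genes Per1 alone passed (0.813% of all tested genes fell), and the list's median was -0.05. Bhlhe40, a clock repressor that HIF also induces, stood at -0.37 ± 0.09 (adjusted p 0.0807). Further genes known to be induced by glucocorticoids did not all fall in both genotypes. Tsc22d3 and Fkbp5 stood at -0.21 and -0.03 and did not pass (adjusted p 0.413 and 0.903). Tsc22d3 was at -0.01 in APC-KO and -0.42 in APC-WT tumours, and Fkbp5 at -0.10 and 0.03, with opposite signs. Cebpd, picked after its value was seen, fell by 0.70 (-1.11 in APC-KO, -0.29 in APC-WT, adjusted p 0.0234). The groups of Cebpd overlapped in APC-WT tumours. Of 21 tested immediate early genes, Dusp1 and Ier3 fell (0.813% of all tested genes did) and none rose, with a median of -0.07. Ier3 fell by 0.80 ± 0.17 (adjusted p 0.0404), but nearly all of it came from APC-KO tumours, at -1.56 against -0.05 in APC-WT tumours. The times of day at which tumours were taken are not known here, and their part in these results was not tested.

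Ccng2, cyclin G2, an inhibitor of cell cycle progression that FOXO factors induce, had the smallest adjusted p of all genes. It read 8.73, 8.62 and 8.67 in APC-KO Dox tumours, against 9.09, 9.08 and 9.07 in APC-KO no-Dox tumours, and 8.59, 8.70 and 8.80 in APC-WT Dox tumours, against 9.63, 9.53 and 9.22 in APC-WT no-Dox tumours. The no-Dox tumours lay above the Dox tumours in both genotypes, and the mean difference was -0.58 ± 0.06 (adjusted p 0.00341). Txnip, an inhibitor of thioredoxin and of glucose uptake, fell by 0.42 ± 0.07, at -0.17 in APC-KO and -0.67 in APC-WT tumours (adjusted p 0.0209). With Klf9 and Per1 these were the 4 of 19 tested FOXO-linked and starvation genes that fell, against 0.813% of all tested genes; none rose, the list's median was -0.17, and 10 of 19 were lower in both genotypes, against 28.3% of all tested genes. Fbxo32, a FOXO-induced ubiquitin ligase subunit, stood at -0.42 (adjusted p 0.058).

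The FOXO core GTAAACA was searched in the same promoter windows on both strands, and 2 matches are shown because both genes fell in the mean effect. Capitals mark the core, which lies 100 bases before the start of Klf9 (chr19:23141096-23141162, plus strand) and 121 bases before that of Txnip (chr3:96557806-96557872, plus strand), on the strand of the gene in each (GRCm38.p6, RefSeq).
Klf9: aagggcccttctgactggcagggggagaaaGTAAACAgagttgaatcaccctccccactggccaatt
Txnip: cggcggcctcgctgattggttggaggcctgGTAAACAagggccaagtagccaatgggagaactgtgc
The core was found in 2 of 18 genes on the FOXO-linked list, these being the 2 shown, and no match was found for Ccng2 or Per1. It was also found in 4 of 76 genes that fell (5.26%) and in 2.66% of all tested genes.

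**Figure D3:**
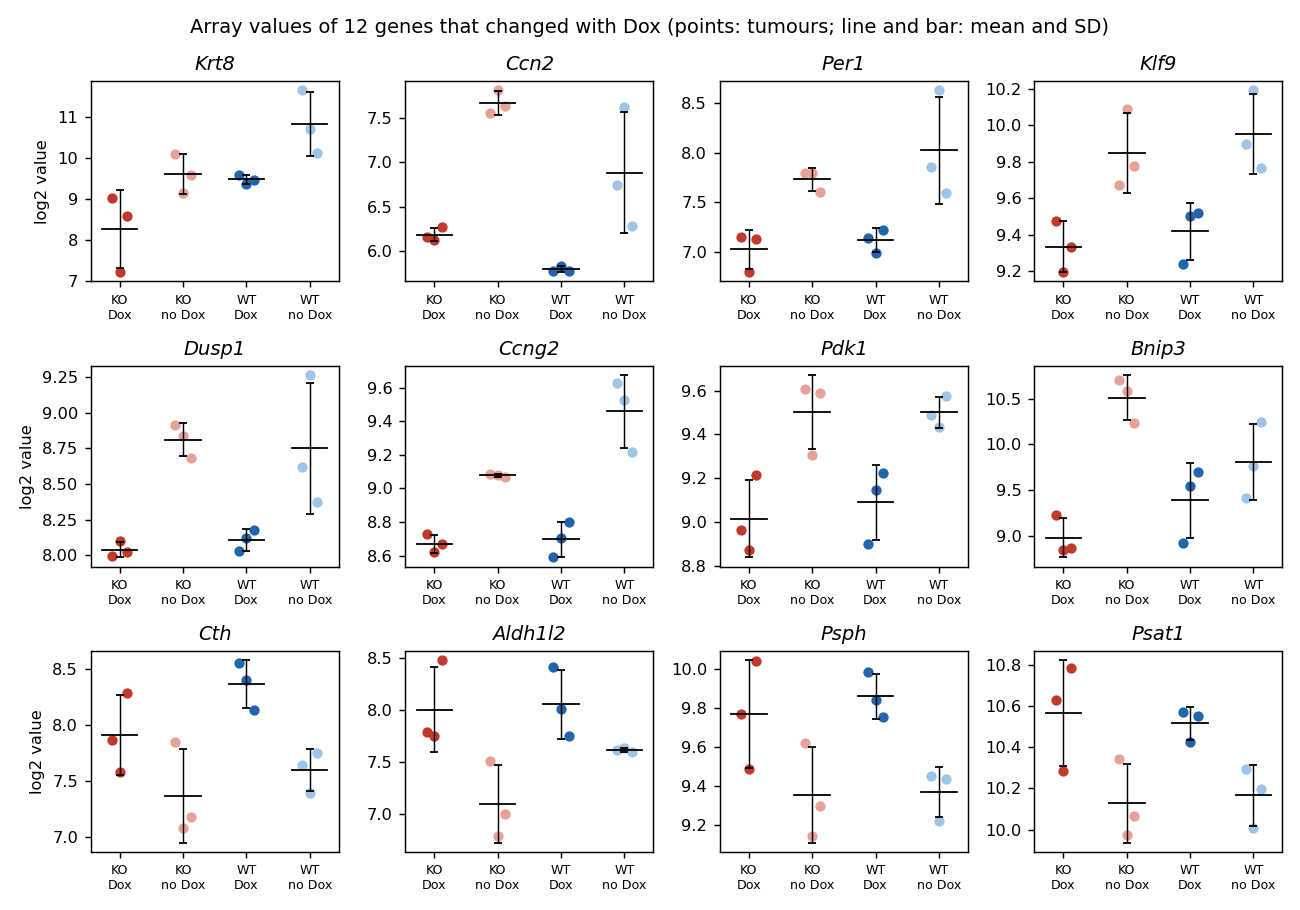
Log2 values of 12 changed genes in each tumour, with APC-KO Dox, APC-KO no Dox, APC-WT Dox and APC-WT no Dox side by side; points are tumours, lines group means and bars the SD. Each panel has its own axis range: Dox tumours lie below no-Dox tumours in the upper 2 rows, with overlap in APC-WT for Bnip3, and above or overlapping them in the bottom row.

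HIF targets and glycolytic enzymes formed a broad group of falls. Of 20 tested hypoxia genes, 9 fell and none rose, where 0.813% of all tested genes fell: Ankrd37, Bnip3, Slc2a1, Egln3, Ndrg1, Adm, Pdk1, Kdm3a and Higd1a. The list's median was -0.42, and 19 of 20 were lower in both genotypes, against 28.3% of all tested genes; the exception was Vegfa, at -0.55 in APC-KO and 0.38 in APC-WT tumours. Of 16 tested glycolytic genes, 6 fell and none rose (Pfkfb3, Aldoa, Pfkl, Pfkp, Ldha and Pkm), with a median of -0.24 and 12 lower in both genotypes. The sizes were unequal: the hypoxia median was -0.50 in APC-KO and -0.20 in APC-WT tumours, and that of glycolysis -0.40 and -0.11.

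A gene of this group with near equal falls was Pdk1, the kinase that keeps pyruvate out of mitochondria. It read 8.96, 8.87 and 9.22 in APC-KO Dox tumours, against 9.61, 9.31 and 9.59 in APC-KO no-Dox tumours, and 8.90, 9.15 and 9.22 in APC-WT Dox tumours, against 9.49, 9.44 and 9.58 in APC-WT no-Dox tumours. There was no overlap in either genotype, and the mean difference was -0.45 ± 0.07 (-0.48 in APC-KO, -0.41 in APC-WT, adjusted p 0.0191). Kdm3a, a histone demethylase, and Pfkp, a phosphofructokinase, were likewise close in both genotypes, at -0.32 and -0.38 in APC-KO tumours and -0.26 and -0.30 in APC-WT tumours.

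Bnip3, a mitophagy receptor, read 9.22, 8.84 and 8.86 in APC-KO Dox tumours, against 10.71, 10.59 and 10.23 in APC-KO no-Dox tumours, and 8.92, 9.54 and 9.69 in APC-WT Dox tumours, against 9.41, 9.77 and 10.24 in APC-WT no-Dox tumours. It fell in the mean by 0.98 ± 0.15 (adjusted p 0.0162), with groups well apart in APC-KO tumours and overlapping in APC-WT tumours. Slc2a1, the glucose carrier GLUT1, read 9.64, 9.30 and 9.50 in APC-KO Dox tumours, against 10.89, 10.68 and 10.54 in APC-KO no-Dox tumours, and 9.62, 9.85 and 10.01 in APC-WT Dox tumours, against 9.90, 9.67 and 10.26 in APC-WT no-Dox tumours. Its mean fall of 0.67 ± 0.10 (adjusted p 0.0162) was thus made of -1.22 in APC-KO and -0.11 in APC-WT tumours, where the groups overlapped. Mgarp, a mitochondrial protein that hypoxia induces, fell by 0.87 ± 0.11 (adjusted p 0.00697), at -1.28 in APC-KO and -0.45 in APC-WT tumours, with no overlap in either genotype. Egln3, a prolyl hydroxylase that marks HIF for destruction and is itself a HIF target, fell by 0.63 ± 0.09, at -0.97 and -0.29 (adjusted p 0.0159), also with no overlap.

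HIF binds DNA at a core ACGTG, which was searched in the same windows on both strands. The promoters of 3 of these genes are shown with the core in capitals, on both strands 108 bases before the start of Bnip3 (chr7:138909580-138909644, minus strand) where the next base completes the palindrome CACGTG, on the opposite strand 219 bases before the start of Mgarp (chr3:51396732-51396796, minus strand), and on the strand of the gene 36 bases before the start of Slc2a1 (chr4:119108679-119108743, plus strand); each is written 5′ to 3′ along its gene (GRCm38.p6, RefSeq).
Bnip3: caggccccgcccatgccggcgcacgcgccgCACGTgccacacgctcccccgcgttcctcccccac
Mgarp: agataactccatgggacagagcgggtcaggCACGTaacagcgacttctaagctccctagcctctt
Slc2a1: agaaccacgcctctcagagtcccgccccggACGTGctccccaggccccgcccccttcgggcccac
The core is short and common: 25.3% of all tested genes with a window held it, as did 26 of the 76 that fell (34.2%) and 12 of 17 on the hypoxia list (70.6%).

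**Figure D4:**
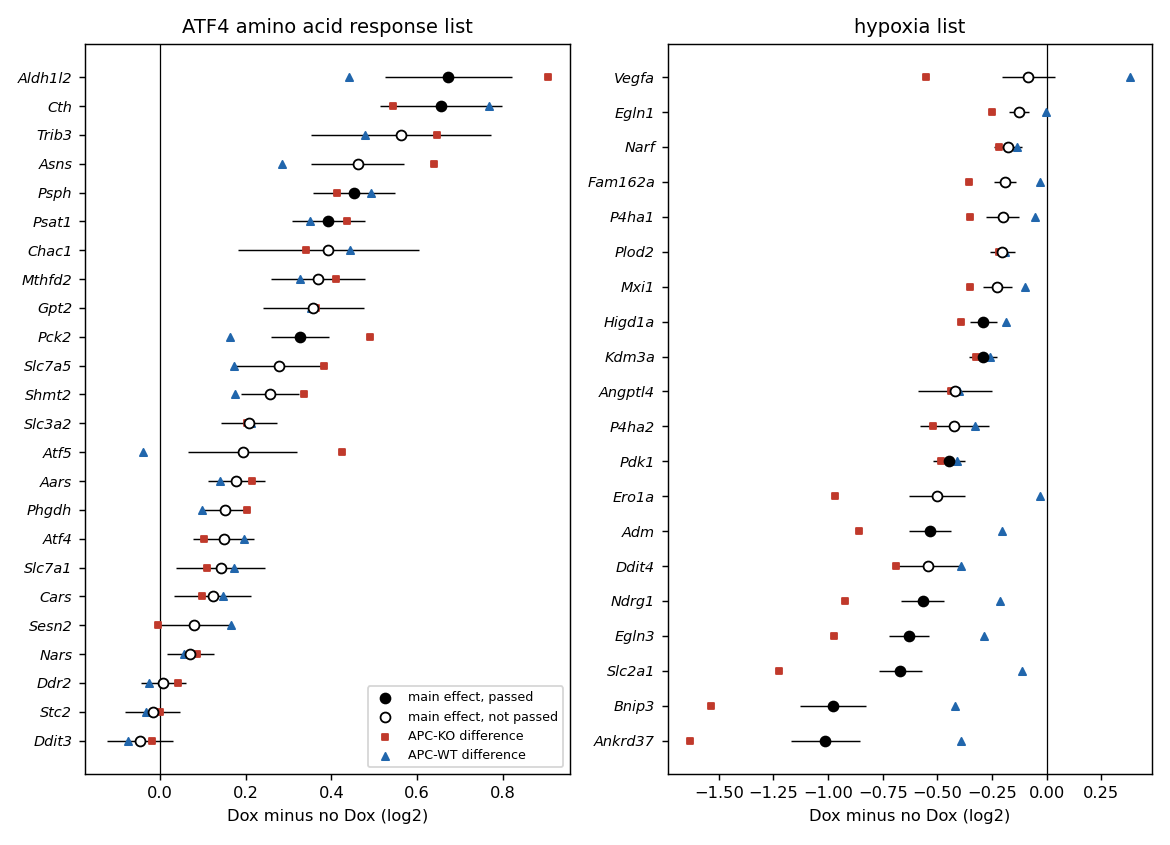
Dox minus no Dox (log2) of each tested member of the ATF4 and hypoxia lists, with the mean effect as circles (filled where it passed, bars the standard error), APC-KO as squares and APC-WT as triangles. Each circle is the mean of its square and triangle. In the ATF4 list the square lies left of the triangle for some genes, such as Cth, and right of it for others, such as Aldh1l2. In the hypoxia list the squares lie left of the triangles for all 20 genes.

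Some factors that act on blood vessels fell and others did not pass. Adm, adrenomedullin, fell by 0.53 (adjusted p 0.0234), as did Pgf, placental growth factor (-0.51, adjusted p 0.0105), and Angpt2, angiopoietin 2 (-0.61, adjusted p 0.017), both picked after their values were seen. These falls were larger in APC-KO tumours, at -0.86 for Adm, -0.72 for Pgf and -0.94 for Angpt2. In APC-WT tumours they were -0.21, -0.29 and -0.29, and the groups of Angpt2 overlapped there. Vegfa, the main vessel growth factor, stood at -0.08 (adjusted p 0.77), and Angptl4 at -0.42 (adjusted p 0.225). The endothelial markers themselves did not pass in any of 13 tested genes, with a median of -0.03; Cldn5 and Vwf stood at -0.26 and -0.28 (adjusted p 0.14 and 0.15).

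Neutrophil markers moved with Dox in APC-KO tumours beside the larger falls there. Their list of 5 tested genes (of 13 listed) had a mean log2 level of 5.60 to 6.20 in APC-KO Dox tumours, against 7.25 to 8.41 in APC-KO no-Dox tumours, and of 6.58 to 7.39 in APC-WT Dox tumours, against 5.99 to 6.88 in APC-WT no-Dox tumours. None of the 5 passed for the mean effect; S100a8 and S100a9 differed by -4.07 and -4.30 in APC-KO and by 1.00 and 1.17 in APC-WT tumours, with opposite signs. Both were under the floor in all 3 APC-KO Dox tumours and in APC-WT no Dox replicate 1, so these sizes are not exact. Il1r2, the decoy receptor of interleukin 1, and Trem1 were lower in both genotypes, at -0.80 and -0.57 in APC-KO and -0.42 and -0.13 in APC-WT tumours (adjusted p of the mean 0.0532 and 0.11). The part of these cells in the APC-KO differences of other genes was not tested. Metallothioneins were similarly unequal: Mt1 and Mt2, which bind zinc and other metals, fell by 0.92 ± 0.16 and 0.95 ± 0.18 (adjusted p 0.0205 and 0.0276), at -1.53 and -1.65 in APC-KO but -0.30 and -0.24 in APC-WT tumours. They were the 2 of 6 tested genes of their list that fell (0.813% of all tested genes did), none rose, and the median was -0.02.

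The lists of antigen presentation, interferon-stimulated and chemokine and cytokine genes held 1, 1 and 2 genes that passed, all lower, where 0.813% of all tested genes fell. Tapbp, tapasin, which loads peptides on MHC class I, fell by 0.23 ± 0.04, at -0.24 in APC-KO and -0.21 in APC-WT tumours (adjusted p 0.0364). It alone passed of 16 tested antigen presentation genes, yet 15 of 16 were lower in both genotypes (28.3% of all tested genes were), with a median of -0.22. Nlrc5, which drives MHC class I transcription, stood at -0.28 ± 0.08 (adjusted p 0.117). Among 23 interferon-stimulated genes Gbp2, a guanylate-binding protein induced by interferon gamma, fell (-0.51 ± 0.10, adjusted p 0.0376), and none rose. Gbp2 stood at -0.75 in APC-KO and -0.27 in APC-WT tumours, where its groups overlapped. All 23 had a negative mean difference, but 13 were lower in both genotypes (28.3% of all tested genes were) and 10 had opposite signs. The list's median went the other way in size, at -0.02 in APC-KO and -0.54 in APC-WT tumours. Of 17 chemokine and cytokine genes Cxcl14 and Osm fell (0.813% of all tested genes did) and none rose, with a median of -0.19. Cxcl14 (-0.66 ± 0.11, -1.19 in APC-KO, -0.12 in APC-WT, adjusted p 0.0191) lay below the floor in each of the 3 APC-KO tumours with Dox. Osm, the cytokine oncostatin M of myeloid cells, fell by 0.47 ± 0.10 (-0.76 in APC-KO, -0.19 in APC-WT, adjusted p 0.0384). In APC-WT tumours the groups of both Cxcl14 and Osm overlapped. The receptor subunit Osmr, picked after its value was seen, fell by 0.40 (-0.46 in APC-KO, -0.33 in APC-WT, adjusted p 0.0365).

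Of the marker lists of immune cells, 1 gene passed. Mertk, a receptor by which macrophages take up dying cells, fell by 0.33 ± 0.06, with no overlap in either genotype (-0.28 in APC-KO, -0.38 in APC-WT, adjusted p 0.02). It alone passed of 15 macrophage markers, whose median was -0.06 and whose mean level was 10.61 to 10.67 in APC-KO Dox tumours, against 10.80 to 10.92 in APC-KO no-Dox tumours, and 10.69 to 10.84 in APC-WT Dox tumours, against 10.76 to 10.83 in APC-WT no-Dox tumours. Arg1, arginase 1, stood at -0.83 ± 0.23 (adjusted p 0.0974). Of 10 T cell markers none passed, but 6 were lower in both genotypes (28.3% of all tested genes were), and the median was -0.18, with Cd3e and Cd3g at -0.23 and -0.54 (adjusted p 0.117 and 0.121). No member passed among 8 dendritic cell markers (5 lower in both genotypes, median -0.10) and 11 markers of NK cells and granzymes (median -0.02). The single tested B cell marker, Ighm, and the single tested mast cell marker, Kit, stood at 0.02 and -0.00, and no erythroid marker was bright enough to be tested.

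Stromal and tissue markers were likewise without calls. None passed among 15 fibroblast and pericyte markers (median -0.08), 4 muscle markers (-0.16), 4 of gut epithelium (0.05), 4 of adipocytes (-0.22) and 3 of pancreas and liver (-0.05). The same held for 16 matrix proteases (median -0.11), of which Mmp13 stood at -2.43 in APC-KO tumours, where 2 of the 3 Dox values were under the floor, and at -0.03 in APC-WT tumours.

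The short lists that address the pathway of TDO2 and of APC held at most 1 changed gene each, where 0.813% of all tested genes fell. Tiparp, a poly-ADP-ribose polymerase induced by the aryl hydrocarbon receptor, fell by 0.35 ± 0.05 (-0.53 in APC-KO, -0.17 in APC-WT, adjusted p 0.0162), the 1 of 7 tested genes on the list of that receptor, its partner and its targets to pass (median -0.09); Ahr, the receptor and a member of the list, stood at -0.15 (adjusted p 0.338). None of 9 tryptophan and kynurenine genes passed (median 0.01), and the tryptophan carrier chains Slc7a5 and Slc3a2 stood at 0.28 and 0.21 (adjusted p 0.193 and 0.128). Of 12 tested Wnt targets 1 fell, Dkk2, a secreted Wnt antagonist, which read 9.83, 9.81 and 9.79 in APC-KO Dox tumours, against 10.30, 10.17 and 10.07 in APC-KO no-Dox tumours, and 8.68, 8.81 and 8.55 in APC-WT Dox tumours, against 9.20, 9.30 and 8.73 in APC-WT no-Dox tumours. Its level was higher in APC-KO tumours throughout, while the falls were alike, at -0.37 and -0.40 (mean -0.38 ± 0.08, adjusted p 0.0475). The groups of Dkk2 overlapped in APC-WT tumours, and it passed in 1 of the 12 fits that leave out an array. The list's median was 0.05, with 7 members higher and 5 lower in both genotypes (26.2% and 28.3% of all tested genes were). Cdkn1a, the cell cycle inhibitor p21, fell by 0.44 ± 0.07 (adjusted p 0.0169) as the 1 of 21 p53 targets that passed (median -0.04).

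Growth and housekeeping programmes showed no passing gene. This held for 27 cell cycle genes (median 0.05, with 0.15 in APC-KO and -0.09 in APC-WT tumours), 24 of oxidative phosphorylation (0.03), 27 of the mitochondrial ribosome (0.05), 21 ER chaperones and unfolded protein response genes (0.05), 19 of cholesterol synthesis (0.12) and 33 of ribosome assembly (0.09). Dnajb9, an ER co-chaperone, came closest in the ER list, at -0.17 ± 0.04 (adjusted p 0.0675).

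**Figure D5:**
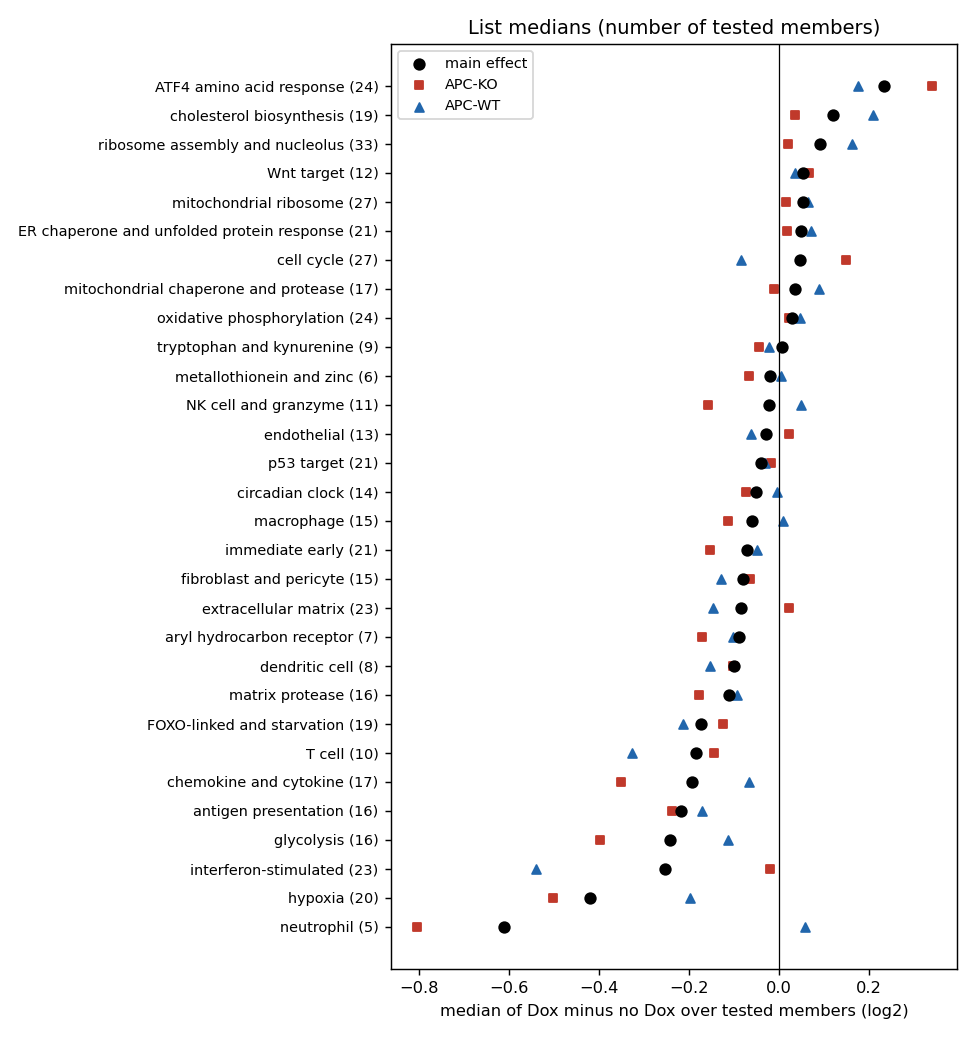
Median Dox minus no Dox difference (log2) over the tested members of each list with at least 5 of them, for the mean effect (circles), APC-KO (squares) and APC-WT (triangles). The ATF4 list lies highest at 0.23; the hypoxia list at -0.42 is lower in both genotypes, while the neutrophil median lies on opposite sides of 0.

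Whether the size differed between genotypes was tested as an interaction, the APC-KO minus the APC-WT difference. No gene passed in limma (smallest adjusted p 0.129), although 1312 (11.9%) had an unadjusted p under 0.05, among them 36 of the 106. The difference was larger in size in APC-KO tumours for 65 of the 106 and in APC-WT tumours for 41. For Slc2a1 the interaction was -1.11 (unadjusted p 7.44e-05) and for Cxcl14 -1.07 (unadjusted p 0.00026), toward a larger fall in APC-KO tumours. In the other direction stood Txnip at 0.50 (unadjusted p 0.0047) and Ccng2 at 0.35 (unadjusted p 0.0146). Genes with the closest match included Klhl42 (interaction 0.00), Emilin2 (0.01), Krt8 (0.02), Klf9 (0.02) and Dkk2 (0.02). For Klf9 the 95% interval of the interaction ran from -0.36 to 0.40 and for Krt8 from -1.24 to 1.28, so differences of those sizes between the genotypes could not be told from none.

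Other probe sets of the named genes gave a check within the arrays. The 15 shared genes that rose and the 15 that fell had 17 further probe sets above the floor, in 8 genes, and all 17 had the direction of the probe set used. Of the 17, 7 had an adjusted p under 0.05 over all probe sets, and none of the 5 that belong to genes that rose. Not all were of the same size: Klf9 had 5 of them, between -0.51 and -0.22, and for Cfap298 they lay between 0.02 and 0.25.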

How the data were processed

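RNA of 12 tumours had been hybridised to Affymetrix arrays. The authors had deposited normalized log2 values; MAS5 is named in the submitters' processing notes, while its settings and the log step are not given in sources used here. The log2 scale was inferred from the range (1.86 to 14.16). There were 45101 probe sets; 64 were controls, 34945 carried 1 symbol (34741 named through their Entrez identifier), 932 several and 9160 none. Each of 18193 genes was represented by its brightest probe set, and 7123 genes under the floor (the median over non-control probe sets) were left out. No 2 arrays held identical values.

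A group-means model was fitted with limma 3.58.1 in R 4.3.3 (lmFit, eBayes with a trend, 2-sided; statmod 1.5.0) and tested on simulated data, in which the share of false calls was above the nominal threshold; figures used Python 3.11.15 and matplotlib 3.10.9. The number of arrays limits the precision. Same-numbered arrays did not deviate together (correlations -0.139 to 0.084), so the numbers were not treated as pairs. Named genes were the 15 higher and 15 lower shared genes with the largest smaller-of-both differences, up to 4 members of each list, Tdo2 and Apc; further genes were picked after their values were seen, including any other list member named. Unnamed clones were skipped. The members, the 37 lists and the alternatives were chosen with earlier results of these data known. Alternatives covered normalization, the filter, the choice of probe set, the variance model, the design, array weights, a replicate block and leaving out each array. Promoter windows were found for 8957 of the 11070 tested genes.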

Additional observations from a re-analysis of the deposited data

Results flagged for a closer look

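Probe sets that name no gene or several genes, which entered no comparison of the report, also held changes with Dox. With limma and Benjamini-Hochberg adjustment over all probe sets, 6 of these 10092 were higher and 16 lower with Dox at an adjusted p under 0.05. In the same fit 15 of 34945 probe sets with 1 symbol were higher and 129 lower.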

How the results depend on the processing

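The 106 changed genes became 68 with the mean of probe sets, 44 without a trend, 31 with an additive model and 266 with array weights. The 16 higher genes became 25 after quantile normalization, 1 without a trend, 10 with a robust prior, 2 with an additive model and 73 with array weights. The 90 lower genes became 57 with the mean of probe sets, 43 without a trend, 29 with an additive model and 193 with array weights. With the replicate number as a block, 80 genes changed, 7 higher and 73 lower; the numbers did not pair the samples. Leaving out 1 array gave 5 to 259 changed genes, 0 to 57 higher and 5 to 202 lower. The hypoxia median was -0.29 with the 75th percentile filter, which tests fewer genes; the cause of the other shifts was not tested. Of the 50 named genes that changed, 33 no longer passed with the additive model, 26 without a trend, 17 with a robust prior, 16 with averaged probe sets and 14 with the block, and 47 and 44 without APC-WT Dox replicate 1 and APC-KO Dox replicate 3. Differences near 0 changed sign. Ighm did so when an array was left out (range -0.0667 to 0.0838), Kit when an array was left out (-0.0555 to 0.0770) and after quantile normalization (0.0038), and Apc without APC-WT no Dox replicate 1 (0.0009; range over arrays left out -0.0442 to 0.0009). The all-gene median was 0.0061 after quantile normalization and -0.0048 after median centring. Genes near the floor, such as Tnc, Cxcl14 and Cdh1, may hide the size of a change.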

Other observations

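With no filter on brightness, 8 of the 7123 genes under the floor passed in limma, 1 higher and 7 lower with Dox. The sizes of these 8 are uncertain because their values lie near or under the floor. Pdcd1, the inhibitory receptor PD-1 of T cells, stood at -0.75 ± 0.12 (-0.59 in APC-KO, -0.92 in APC-WT, adjusted p 0.0169), and Tox, a transcription factor of exhausted T cells, at -0.44 ± 0.07 (-0.42 in APC-KO, -0.47 in APC-WT, adjusted p 0.0137). Cd36, a fatty acid carrier and scavenger receptor, stood at -0.96 ± 0.17 (adjusted p 0.018), and Slc16a3, the lactate exporter MCT4, at -0.65 ± 0.11 (adjusted p 0.0169). Btnl9, a butyrophilin-like gene, was the 1 higher gene, at 0.46 ± 0.08 (adjusted p 0.018). These genes were picked after their values were seen.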
